A study of Mus musculus with 7 samples.

Results

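The genes described here are those of Wnt signalling: 19 genes for the secreted Wnt ligands, 12 for the Frizzled and LRP receptors, and 11 for the transducers that carry the signal to the nucleus. They were taken by name from a deposited table of read counts over 27179 genes, and all 42 were found in it. The tissue was the 1st and 2nd pharyngeal arch, from which the jaws and middle ear form, taken at E10.5 from mouse embryos on a C57BL/6 background. Chromatin was precipitated with an anti-V5 antibody and sequenced (ChIP-seq). The purpose was to locate MOZ (KAT6A), an enzyme that acetylates histones, on the genome. There were 3 libraries from embryos homozygous for a MOZ allele with a C-terminal Flag-V5-BIO tag, called V5 libraries here, and 3 from wild-type embryos, which lack the V5 epitope and served as negative control in the same precipitation. A single input library holds chromatin of tagged arches that was not immunoprecipitated. The tagged allele was made by homologous recombination at the endogenous locus, and mice homozygous for it were viable and fertile. No label says whether replicates came from separate embryos or pools, so p-values cover only the spread among libraries, and that spread could be technical. The libraries hold genomic DNA, so marker genes cannot show which cells of the arches were present, and a count is not an expression level.

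Wnt ligands are secreted lipid-modified proteins that bind a Frizzled receptor together with the co-receptor LRP5 or LRP6. In the canonical branch this recruits Dishevelled proteins (Dvl), disables the destruction complex built on Axin and APC, and lets beta-catenin, the product of Ctnnb1, accumulate and act with TCF and LEF proteins on target genes. Axin2 and Lef1 are themselves classical targets of the pathway. In the face of the embryo, Wnt9b from the ectoderm acts on outgrowth of the facial prominences, Wnt1 marks the dorsal neural tube from which neural crest cells leave, and Wnt5a acts through a branch independent of beta-catenin in the growth and elongation of the jaws.

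In all, 806648 to 3286602 reads were counted per V5 library, 1288732 to 2504595 per wild-type library and 3488745 for the input. The Wnt genes together took 950 to 4914 of the V5 reads, 1965 to 3624 of the wild-type reads and 4725 of the input reads. Values below are in CPM, the count divided by the total of its library and multiplied by 1000000, and 3 counts, taken as the limit for a gene with 0 counts, correspond to 0.913 to 3.72 CPM in the V5 libraries and 1.20 to 2.33 in the wild-type libraries. That limit and all intervals cover counting error only. The counts were taken over the gene body of most genes: for 31 of the 42 the deposited length was within 1% of the whole RefSeq span, so a signal at a start site is diluted by the rest of the gene, and reads in upstream sequence are not part of such a span. A count cannot separate tagged MOZ from other sources of reads in a gene, since a wild-type library yields reads too.

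As a class, the Wnt genes had about the same share of reads in both genotypes, with a standard deviation of 333 CPM among the V5 libraries and 39.0 CPM among the wild-type libraries. The 42 genes summed to 1178, 1843 and 1495 CPM in V5 replicates 1 to 3, against 1525, 1492 and 1447 CPM in wild-type replicates 1 to 3 and 1354 CPM in the input. V5 replicate 1 lay below every wild-type library and V5 replicate 2 above every one. The ligand genes summed to 378, 637 and 459 CPM in the V5 libraries, against 435, 461 and 405 CPM in wild type and 430.0 CPM in the input. The ratio of the group means was 1.13 (SD of the V5 libraries over the wild-type mean 0.305, n = 3), and it was 0.965 without V5 replicate 2, the other side of 1. Receptor genes summed to 315, 529 and 392 CPM in the V5 libraries, against 440.0, 372 and 408 CPM in wild type and 333 CPM in the input. Their ratio of 1.01 (SD 0.266) was 0.869 without V5 replicate 2. Transducer genes summed to 485, 677 and 644 CPM in the V5 libraries, against 650.3, 658 and 634 CPM in wild type and 591 CPM in the input. This ratio of 0.930 (SD 0.159) was 1.02 without V5 replicate 1. In all 3 classes the V5 range enclosed the mean of the wild-type libraries.

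**Figure D1:**
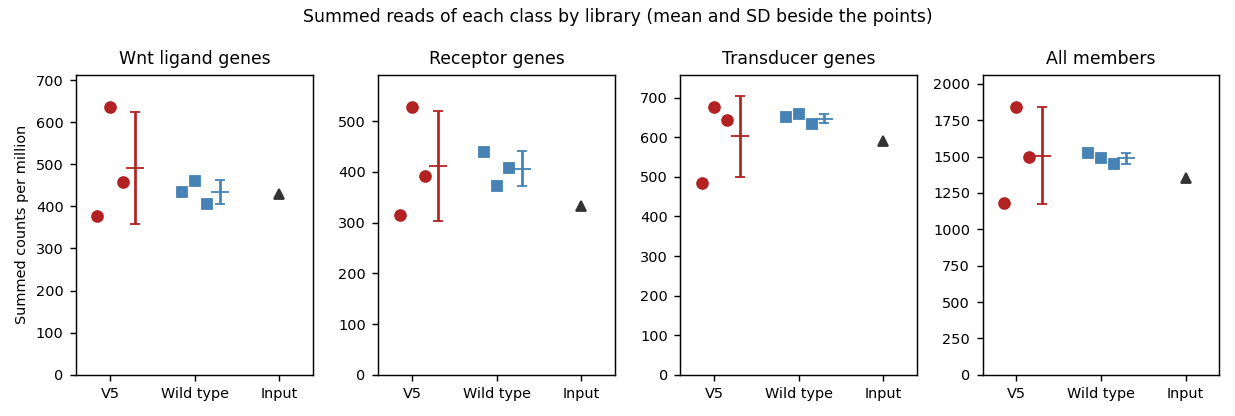
Summed reads of ligand, receptor, transducer and all 42 genes in CPM (vertical axes, from 0) for each V5, wild-type and input library, with the mean and SD of each ChIP group beside its points. The V5 libraries spread from 1178 to 1843 CPM over all members and the wild-type libraries from 1447 to 1525 CPM.

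Gene by gene, no Wnt gene passed the test between V5 and wild-type arches. A gene entered the fit with at least about 7.62 CPM in any 3 of the 6 ChIP libraries, which 31 of the 42 did: 14 ligand, 7 receptor and 10 transducer genes. Fzd2 was the only one of them that passed this filter through its V5 libraries alone, so it had to be higher there. With library totals scaled by the TMM factors of the fit, 20 of the 31 reached the limit in all 6 ChIP libraries. Among them was Wnt5a, whose 7.44 CPM in V5 replicate 1 lies under 7.62 on the unscaled totals that the filter used. With edgeR's quasi-likelihood test and Benjamini-Hochberg adjustment over all 14575 tested genes, 0 of 31 members passed at 0.05, as did 0% of all tested genes, and the smallest adjusted p of a member was 0.980. DESeq2 and limma-voom also called 0 members. At an unadjusted p under 0.05 there were 3 members, Wnt7b, Fzd2 and Lrp6. The filter fixed the direction of Fzd2, so only Wnt7b and Lrp6 are set against other genes. Over all tested genes 4.12% had such a p. In 2.74% the value was higher in V5, as in Wnt7b, and in 1.38% it was lower, as in Lrp6. The log2 fold changes of the 31 ran from -0.71 for Ctnnb1 to 2.00 for Fzd2, with 17 above 0 and a median of 0.01. Over all tested genes 52% were above 0 and the median was 0.02. The standard errors of the members ran from 0.21 for Tcf7l2 to 1.14 for Fzd5.

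**Figure D2:**
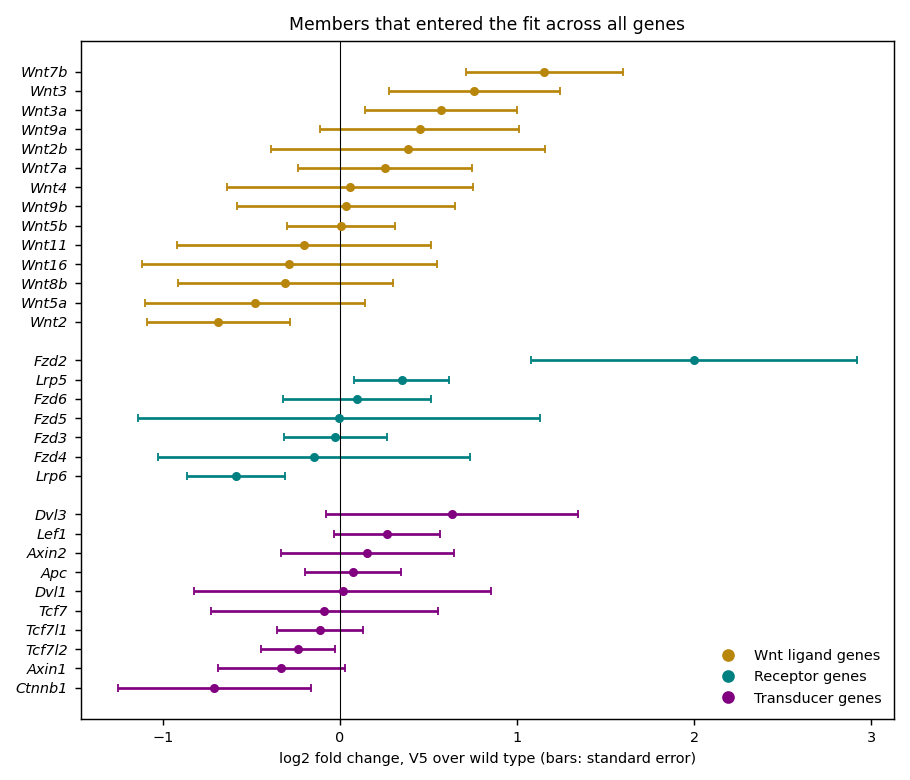
Log2 fold change of V5 over wild type (horizontal axis) with its standard error for the 31 Wnt genes that entered the fit, grouped as ligand, receptor and transducer genes and ordered by value. Fzd2 stands at 2.00 with a standard error of 0.92, Wnt7b at 1.15 and Ctnnb1, the lowest, at -0.71.

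The V5 and wild-type libraries did not overlap in 3 members: Fzd2 and Fzd7 were higher in every V5 library and Wnt2 was lower. The separation of Fzd2 was fixed by the filter, which only its V5 libraries reached, so it is not read against other genes. Of the other tested members 0 lay wholly above and 1 wholly below, and over all tested genes 4.83% had every V5 library above and 5.27% every V5 library below. Fzd7 is 1 of the 11 members under the filter, and among all genes under it with at least 10 counts 3.47% lay wholly above and 4.53% wholly below; 1 of the 11 members lay above and 0 below. The sequence just upstream of the start is shown for Fzd7 and Wnt2, which differ in direction, and for Axin2 and Lef1 as target genes of the pathway. The windows are the 250 bases before the most upstream start that the RefSeq promoter table (GRCm38.p6, the assembly of mm10) gives, written 5′ to 3′ on the strand of the gene. Capitals mark the core recognised by TCF and LEF proteins, searched on both strands as CTTTG followed by a pair of bases that are each A or T. These forms differ in their last bases, so no 2 of them match at the same place.
Fzd7 (chr1:59481897-59482146, plus strand): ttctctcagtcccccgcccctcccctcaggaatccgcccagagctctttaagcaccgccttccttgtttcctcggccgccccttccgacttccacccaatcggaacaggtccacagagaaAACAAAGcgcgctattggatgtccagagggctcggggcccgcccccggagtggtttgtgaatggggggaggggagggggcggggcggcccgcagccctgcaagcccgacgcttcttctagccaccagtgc
Wnt2 (chr6:18030446-18030695, minus strand): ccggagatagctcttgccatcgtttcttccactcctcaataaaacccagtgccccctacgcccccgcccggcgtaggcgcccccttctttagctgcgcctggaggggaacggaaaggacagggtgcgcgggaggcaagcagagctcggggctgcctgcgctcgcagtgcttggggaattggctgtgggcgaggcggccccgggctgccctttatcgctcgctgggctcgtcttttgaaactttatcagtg
Axin2 (chr11:108920099-108920348, plus strand): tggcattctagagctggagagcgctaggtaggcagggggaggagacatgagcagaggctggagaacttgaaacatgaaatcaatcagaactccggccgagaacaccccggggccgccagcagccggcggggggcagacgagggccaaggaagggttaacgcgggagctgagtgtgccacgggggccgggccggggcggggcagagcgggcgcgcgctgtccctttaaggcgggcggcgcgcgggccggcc
Lef1 (chr3:131110047-131110296, plus strand): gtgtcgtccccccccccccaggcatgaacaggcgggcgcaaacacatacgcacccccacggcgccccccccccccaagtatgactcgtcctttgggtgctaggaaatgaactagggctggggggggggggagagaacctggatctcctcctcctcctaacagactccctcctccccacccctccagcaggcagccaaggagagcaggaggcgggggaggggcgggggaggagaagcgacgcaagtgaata
The Fzd7 window holds 1 such match, on the reverse strand, and the other windows shown hold 0. Of the 30 members with an entry, 2 had a match, Fzd7 and Wnt11, against 14.9% of windows of the same length over 27025 genes. The windows of the members were rich in CG dinucleotides, with a median of 27 per window and a range from 5 for Wnt8b to 48 for Wnt9a, against a median of 6 over all genes. Those shown hold 17 in Fzd7, 20 in Wnt2, 24 in Axin2 and 11 in Lef1. The windows of Fzd7 and Lef1 end where the RefSeq gene span begins, so their bases lie outside that span. Those of Wnt2 and Axin2 lie inside a RefSeq span that begins at a start further upstream. The deposited length was only 87.8% of that span for Wnt2 and 92.4% for Axin2, so reads in these windows need not have been counted. Tested genes whose window held at least 27 CG dinucleotides had a median log2 fold change of 0.03, against 0.02 for those with fewer, and the 12 tested members above that number had 0.00.

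Among the ligand genes, Wnt7b and Wnt3 had the largest positive log2 fold changes and Wnt2 the largest negative one, and none passed. Wnt7b, a ligand made mainly by epithelia (GeneID 22422, chromosome 15, 85535437 to 85581821 in mm10), was hit by 53, 123 and 103 reads in V5 replicates 1 to 3, against 56, 31 and 67 reads in wild-type replicates 1 to 3 and 161 reads in the input. That is 65.7, 108 and 31.3 CPM in V5, against 43.5, 23.4 and 26.8 CPM in wild type and 46.1 CPM in the input. V5 replicates 1 and 2 lay above all wild-type libraries and the deepest V5 library, replicate 3, lay within their range. The log2 fold change was 1.15 (SE 0.44; adjusted p = 0.980 by edgeR), and 0.66 without V5 replicate 2. Wnt3 (GeneID 22415, chromosome 11, 103774175 to 103818021), a canonical ligand that acts in limb and facial ectoderm, had 71.9, 29.9 and 31.9 CPM in V5 (58, 34 and 105 reads), against 17.8, 37.7 and 25.2 CPM in wild type (23, 50 and 63 reads) and 20.9 CPM in the input (73 reads). Only V5 replicate 1 stood outside the wild-type range, and the log2 fold change of 0.76 (SE 0.48; adjusted p = 0.980 by edgeR) was 0.18 without it.

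Wnt2, a ligand known for lung and placental development (GeneID 22413, chromosome 6, 17985474 to 18032772), was hit by 24, 31 and 115 reads in V5 replicates 1 to 3, against 52, 86 and 117 reads in wild-type replicates 1 to 3 and 112 reads in the input. These are 29.8, 27.2 and 35.0 CPM in V5, against 40.3, 64.8 and 46.7 CPM in wild type and 32.1 CPM in the input. All V5 libraries were below all wild-type libraries, and the input lay among the V5 values. The log2 fold change was -0.69 (SE 0.40; adjusted p = 0.980 by edgeR).

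The ligand genes with known roles in the arches and neural crest overlapped between the genotypes, and several had few reads. Wnt5a had 7.44, 17.6 and 15.8 CPM in V5 (6, 20 and 52 reads), against 27.9, 14.3 and 16.4 CPM in wild type (36, 19 and 41 reads) and 14.6 CPM in the input (51 reads), a log2 fold change of -0.48 (SE 0.62). It was -0.15 without wild-type replicate 1 and -0.25 without V5 replicate 1. Wnt9b had 6.20, 26.4 and 20.1 CPM in V5 (5, 30 and 66 reads), against 19.4, 18.1 and 15.2 CPM in wild type (25, 24 and 38 reads) and 11.5 CPM in the input (40 reads). The V5 range of Wnt9b enclosed the wild-type range, and its log2 fold change of 0.03 (SE 0.61) changed sign without V5 replicate 2, at -0.32, without V5 replicate 3, at -0.05, and without wild-type replicate 3, at -0.08. Leaving out V5 replicate 1 gave 0.37, and leaving out wild-type replicate 1 gave 0.11. Wnt1, under the filter, was hit by 0, 20 and 7 reads in V5 replicates 1 to 3, against 2, 4 and 3 reads in wild-type replicates 1 to 3 and 20 reads in the input. Its ratio of mean CPM was 3.42 (two-sided exact permutation p = 0.8), and 0.554 without V5 replicate 2, the library with 17.6 of its CPM. Wnt10a, active in teeth and skin, had the lowest ratio of the ligand genes under the filter, 0.750, with 1.24, 6.15 and 10.95 CPM in V5 (1, 7 and 36 reads), against 11.6, 6.03 and 6.79 CPM in wild type (15, 8 and 17 reads) and 14.3 CPM in the input (50 reads) (two-sided exact permutation p = 0.5). Without V5 replicate 1 the ratio was 1.05. Wnt6, Wnt8a and Wnt10b, also under the filter, had ratios of 1.38, 2.63 and 0.858 with overlapping libraries. With 3 libraries against 3, the smallest p this exact test allows is 0.1.

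Several ligand genes lie next to each other, and the values of neighbours are given side by side here, with no test. Wnt3 and Wnt9b overlap at their ends in RefSeq on chromosome 11, and their log2 fold changes were 0.76 and 0.03. How reads in the overlap were counted is not given in the sources used here. The deposited length was only 46.9% of the RefSeq span for Wnt9b and 43.3% for Wnt6, and which part was counted is not given. Wnt3a and Wnt9a, the other adjacent pair of chromosome 11, stood at 0.57 (SE 0.43) and 0.45 (SE 0.56). Wnt1 and Wnt10b on chromosome 15 had ratios of mean CPM of 3.42 and 0.858. Wnt6 and Wnt10a on chromosome 1 had 1.38 and 0.750. The remaining tested ligand genes, Wnt2b, Wnt4, Wnt5b, Wnt7a, Wnt8b, Wnt11 and Wnt16, ran from -0.31 for Wnt8b to 0.38 for Wnt2b. Wnt5b, the one with the most reads, had 53.3, 161 and 107 CPM in V5 (43, 183 and 353 reads), against 88.5, 133 and 104 CPM in wild type (114, 176 and 261 reads) and 97.7 CPM in the input (341 reads).

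**Figure D3:**
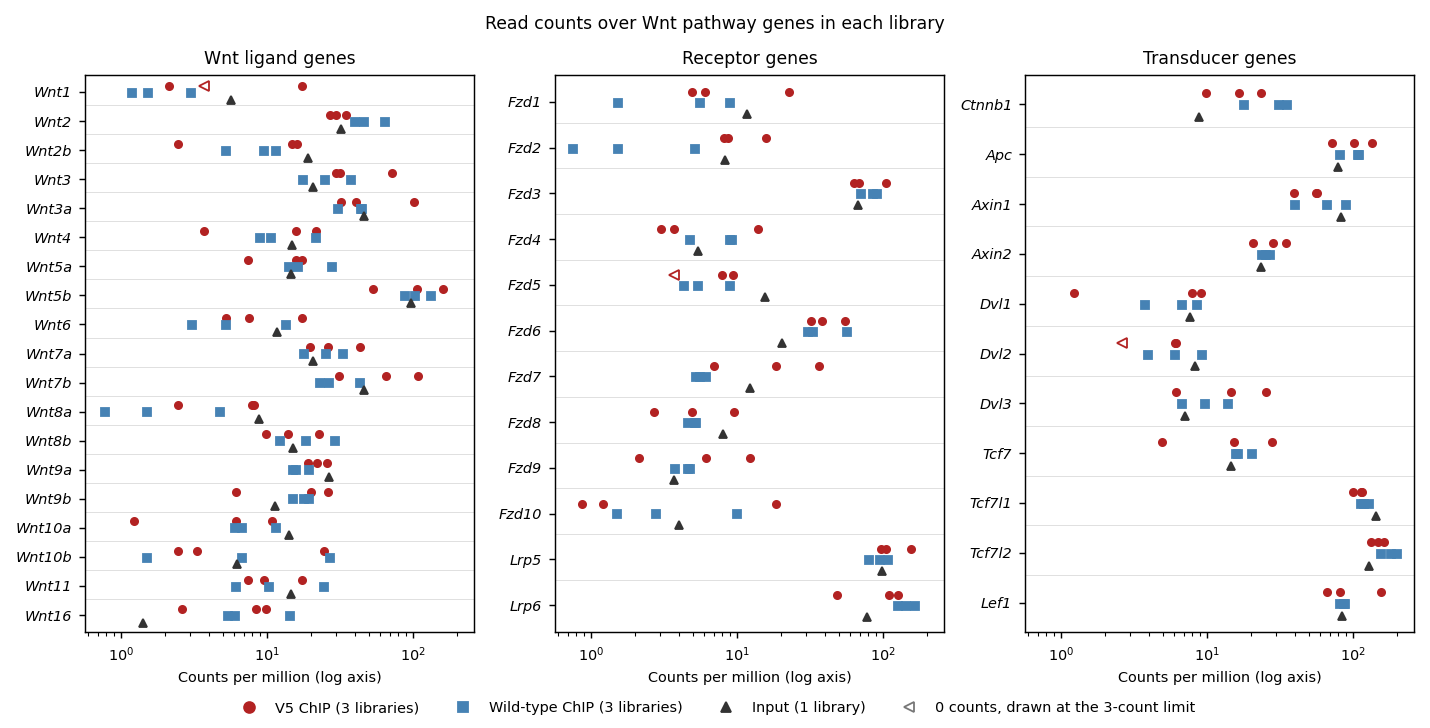
CPM (log axis) of each of the 42 Wnt genes in the 3 V5 libraries (circles, upper in each row), the 3 wild-type libraries (squares, middle) and the input (triangle, lower), with open arrows at the 3-count limit for libraries with 0 counts. Only Fzd2, Fzd7 and Wnt2 have V5 circles that do not overlap the wild-type squares.

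Among the receptor genes the short, single-exon genes Fzd2 and Fzd7 carried the largest differences, all on few reads. Fzd2, a receptor for canonical and other Wnt signals (GeneID 57265, chromosome 11, 102604431 to 102608058), was hit by 7, 18 and 27 reads in V5 replicates 1 to 3, against 2, 1 and 13 reads in wild-type replicates 1 to 3 and 29 reads in the input. These are 8.68, 15.8 and 8.22 CPM in V5, against 1.55, 0.753 and 5.19 CPM in wild type and 8.31 CPM in the input. Every V5 library exceeded every wild-type library, a separation that the filter fixed. The input stood at the level of V5 replicates 1 and 3. The log2 fold change was 2.00 (SE 0.92; adjusted p = 0.980 by edgeR), ranging from 1.62 without wild-type replicate 2 to 3.17 without wild-type replicate 3. Fzd7, a receptor known from intestinal stem cells (GeneID 14369, chromosome 1, 59482147 to 59486955), was hit by 15, 42 and 23 reads in V5 replicates 1 to 3, against 8, 7 and 14 reads in wild-type replicates 1 to 3 and 43 reads in the input. These are 18.6, 36.9 and 7.0 CPM in V5, against 6.21, 5.27 and 5.59 CPM in wild type and 12.3 CPM in the input. V5 replicate 3 exceeded the highest wild-type library by little and lay below the input. The ratio of mean CPM was 3.66 (two-sided exact permutation p = 0.1), and 2.25 without V5 replicate 2. Without a filter on low counts, Fzd7 had a log2 fold change of 1.85 (SE 0.80; adjusted p = 0.854 by edgeR).

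The other short Frizzled genes overlapped between the genotypes. Fzd1 had 4.96, 22.8 and 6.09 CPM in V5 (4, 26 and 20 reads), against 1.55, 9.04 and 5.59 CPM in wild type (2, 12 and 14 reads) and 11.8 CPM in the input (41 reads). Fzd8 had the lowest ratio of the receptor genes under the filter, 1.15 (two-sided exact permutation p = 0.9), with 4.96, 9.66 and 2.74 CPM in V5 (4, 11 and 9 reads), against 4.66, 5.27 and 5.19 CPM in wild type (6, 7 and 13 reads) and 8.03 CPM in the input (28 reads). Without V5 replicate 2 that ratio was 0.764. Fzd9 and Fzd10 had ratios of 1.56 and 1.44, and Fzd4 and Fzd5 had log2 fold changes of -0.15 (SE 0.88) and -0.01 (SE 1.14). Fzd3 and Fzd6, longer genes that act mainly in planar cell polarity, stood at -0.03 (SE 0.29) and 0.09 (SE 0.42).

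The co-receptor genes Lrp5 and Lrp6, which are long and had many reads, had log2 fold changes of opposite sign, neither past the test. Lrp6 (GeneID 16974, chromosome 6, 134446476 to 134566913) was hit by 39, 146 and 365 reads in V5 replicates 1 to 3, against 187, 169 and 420 reads in wild-type replicates 1 to 3 and 271 reads in the input. These are 48.3, 128 and 111 CPM in V5, against 145, 127 and 168 CPM in wild type and 77.7 CPM in the input. V5 replicate 2 just exceeded wild-type replicate 2, so the groups overlapped. The log2 fold change was -0.59 (SE 0.28; adjusted p = 0.980 by edgeR), and -0.33 without V5 replicate 1, the shallowest library. Lrp5 had 105, 155 and 97.4 CPM in V5 (85, 177 and 320 reads), against 109, 96.4 and 80.7 CPM in wild type (141, 128 and 202 reads) and 98.6 CPM in the input (344 reads), a log2 fold change of 0.35 (SE 0.27; adjusted p = 0.980 by edgeR). Leaving out V5 replicate 2 gave 0.12, and leaving out wild-type replicate 3 gave 0.23. The difference between Lrp5 and Lrp6 was not tested.

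No transducer gene passed the test, with 5 of the 10 tested above 0 and a median log2 fold change of -0.04. Ctnnb1, the beta-catenin gene (GeneID 12387, chromosome 9, 120933400 to 120960507), was hit by 8, 19 and 78 reads in V5 replicates 1 to 3, against 46, 24 and 79 reads in wild-type replicates 1 to 3 and 31 reads in the input. These are 9.92, 16.7 and 23.7 CPM in V5, against 35.7, 18.1 and 31.5 CPM in wild type and 8.89 CPM in the input. V5 replicate 3 exceeded the lowest wild-type library, and all 6 ChIP libraries exceeded the input, V5 replicate 1 by little. The log2 fold change was -0.71 (SE 0.54; adjusted p = 0.980 by edgeR). Tcf7l2, the gene of TCF4 (GeneID 21416, chromosome 19, 55741797 to 55933659), had 134, 149 and 165 CPM in V5 (108, 170 and 543 reads), against 184, 200.4 and 156 CPM in wild type (237, 266 and 390 reads) and 130.1 CPM in the input (454 reads). The group means were 149 ± 15.7 CPM in V5 and 180.0 ± 22.6 CPM in wild type (SD, n = 3), and V5 replicate 3 overlapped the wild-type range. Its log2 fold change of -0.24 had the smallest error of all members (SE 0.21). Axin1, the scaffold of the destruction complex, had 39.7, 56.2 and 57.2 CPM in V5 (32, 64 and 188 reads), against 40.3, 89.6 and 66.7 CPM in wild type (52, 119 and 167 reads) and 82.8 CPM in the input (289 reads). Its libraries overlapped, and its log2 fold change was -0.33 (SE 0.36), -0.053 without wild-type replicate 2 and -0.59 without wild-type replicate 1.

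The libraries of the pathway's own target genes overlapped between the genotypes. Axin2 had 28.5, 35.1 and 20.7 CPM in V5 (23, 40 and 68 reads), against 24.1, 27.1 and 25.6 CPM in wild type (31, 36 and 64 reads) and 23.5 CPM in the input (82 reads). Its V5 range enclosed the wild-type range, and the log2 fold change of 0.15 (SE 0.49) was -0.038 without V5 replicate 2, 0.078 without V5 replicate 1, 0.37 without V5 replicate 3 and -0.062 with limma-voom. Lef1 had 66.9, 156 and 82.5 CPM in V5 (54, 178 and 271 reads), against 87.7, 88.1 and 82.2 CPM in wild type (113, 117 and 206 reads) and 84.0 CPM in the input (293 reads). Its wild-type libraries and its input were within a few CPM of each other, V5 replicate 2 stood far above them, and the log2 fold change of 0.26 (SE 0.30) was -0.16 without that library and 0.43 without either of the other V5 libraries. Apc, the destruction complex gene, and the Dishevelled genes Dvl1 and Dvl3 stood at 0.07 (SE 0.27), 0.01 (SE 0.84) and 0.63 (SE 0.71). Tcf7 and Tcf7l1 stood at -0.09 (SE 0.64) and -0.11 (SE 0.24). Dvl2, under the filter, was hit by 5, 0 and 20 reads in V5 replicates 1 to 3, against 12, 8 and 10 reads in wild-type replicates 1 to 3 and 29 reads in the input, a ratio of mean CPM of 0.635 (two-sided exact permutation p = 0.6). Leaving out V5 replicate 2, which had 0, brought that ratio to 0.953.

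V5 replicate 2 recurred as the high library in these genes, and V5 replicate 1 as the low one. V5 replicate 2 had the highest CPM of the 6 ChIP libraries in 11 of the 31 tested members, or 35.5%, against 24.8% of all tested genes. By class it was the highest in 7 of 12 receptor, 5 of 19 ligand and 4 of 11 transducer genes. V5 replicate 1, the library with the fewest counts, was the lowest in 17 of the 31 tested members, or 54.8%, against 32.8% of all tested genes. It was the lowest in 8 of 11 transducer genes. These counts by class include members under the filter, for which no share over all genes was computed. They are therefore not set against the 24.8% and 32.8%, which cover tested genes only. The part of depth in how often each library was the extreme one was not tested.

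Set against the input, wild-type chromatin without an epitope lay above it at several of the same genes as V5 chromatin. There is 1 input library, so these ratios have no test. The 39 members with at least 70 counts, summed over the 7 libraries, are described here. Their median log2 ratio of mean CPM over the input was 0.20 in V5 and 0.04 in wild type. It was 0.04 and 0.00 over all genes with as many counts. The V5 median was -0.14 without V5 replicate 2, and over members with at least 140 counts the median was 0.27 in V5 and 0.27 in wild type. All V5 libraries exceeded the input in 5 of the 39, against 19.4% of all such genes, and all wild-type libraries did so in 11, against 24.9%. All V5 libraries lay below the input in 8 of them, against 24.5%, and all wild-type libraries in 12, against 29.6%.

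Wnt16, Ctnnb1, Fzd6 and Tcf7l2 exceeded the input in all 6 ChIP libraries, a pattern whose share over all genes was not computed. For Ctnnb1 and Tcf7l2 the margin of V5 replicate 1 was within counting error. Ctnnb1 had 9.92 CPM there (exact 95% Poisson interval 4.28 to 19.5) against 8.89 CPM in the input. Tcf7l2 had 134 CPM (interval 110 to 162) against 130.1 CPM. Wnt16, a ligand of cortical bone (chromosome 6, 22288178 to 22298522), stood highest, with a log2 ratio over the input of 2.24 in V5 and 2.50 in wild type. Its reads numbered 8, 3 and 28 in V5 replicates 1 to 3 and 7, 8 and 36 in wild-type replicates 1 to 3, against 5 reads or 1.43 CPM in the input, with an exact 95% Poisson interval of 0.465 to 3.34 CPM. Its ratio rests on few input reads. Ctnnb1 had log2 ratios over the input of 0.93 in V5 and 1.67 in wild type, and Fzd6 of 1.05 and 0.98. At the other end, Fzd5, a receptor of eye and gut development, had -1.36 in V5 and -1.27 in wild type. Fzd7 and Fzd2 were on opposite sides of the input in the 2 genotypes, at 0.77 and 0.42 in V5 and at -1.05 and -1.58 in wild type. In both genes the V5 mean lay above the input and the wild-type mean below it. V5 replicate 3 alone lay below the input in both, at -0.80 for Fzd7 and -0.02 for Fzd2. The means of Wnt7b, Wnt3a and Lrp5 were also above the input in V5 and below it in wild type. Those of Wnt2 and Wnt5a were the reverse.

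**Figure D4:**
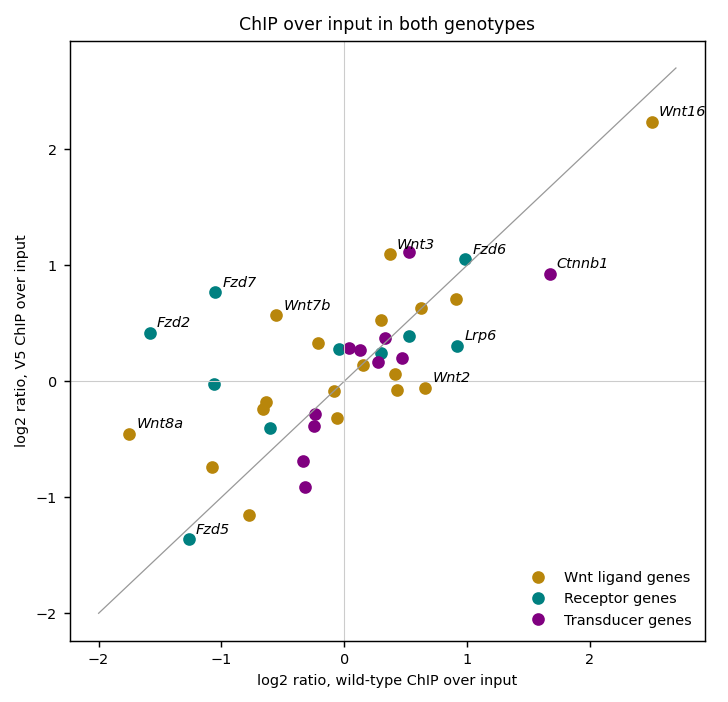
Log2 ratio over the input of V5 ChIP (vertical axis) and wild-type ChIP (horizontal axis) for the 39 Wnt genes with at least 70 counts summed over the 7 libraries, with the line of equal values. Both axes share the same input library. Fzd2 and Fzd7 lie far above the line of equal values and Ctnnb1 and Lrp6 below that line.

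Short members had few reads, and their sum varied most in V5. The 12 members of up to 10 kb, 8 of them Frizzled genes, summed to 76.9, 170.4 and 59.6 CPM in V5, against 82.3, 55.7 and 55.1 CPM in wild type and 98.6 CPM in the input. V5 replicate 2 alone stood above the wild-type range, and the ratio of group means of 1.59 was 1.06 without it. The 9 with at least 70 counts had a median log2 ratio over the input of -0.02 in V5 and -1.05 in wild type, against 0.09 and -0.15 over all genes of that length. That V5 median is the value of Fzd1, which had -1.09, 0.97 and -0.93 in V5 replicates 1 to 3. It was not recomputed without V5 replicate 2. Only 3 of the 12 entered the fit, and the 1082 tested genes of this length had a median log2 fold change of 0.18, against 0.02 over all tested genes. The 7 members over 100 kb had log2 fold changes from -0.59 for Lrp6 to 0.35 for Lrp5, with a median of 0.01, and -0.01 was the median of all tested genes of that length. Per kb of gene, the median level of receptor genes was 1.52 CPM in V5, 1.23 in wild type and 1.55 in the input. For ligand genes it was 0.750 CPM in V5, 0.672 in wild type and 0.875 in the input. Over all genes it was 0.792 CPM in V5, 0.819 in wild type and 0.750 in the input. The 12 members of up to 10 kb had 1.69, 1.21 and 1.66 CPM per kb.

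**Figure D5:**
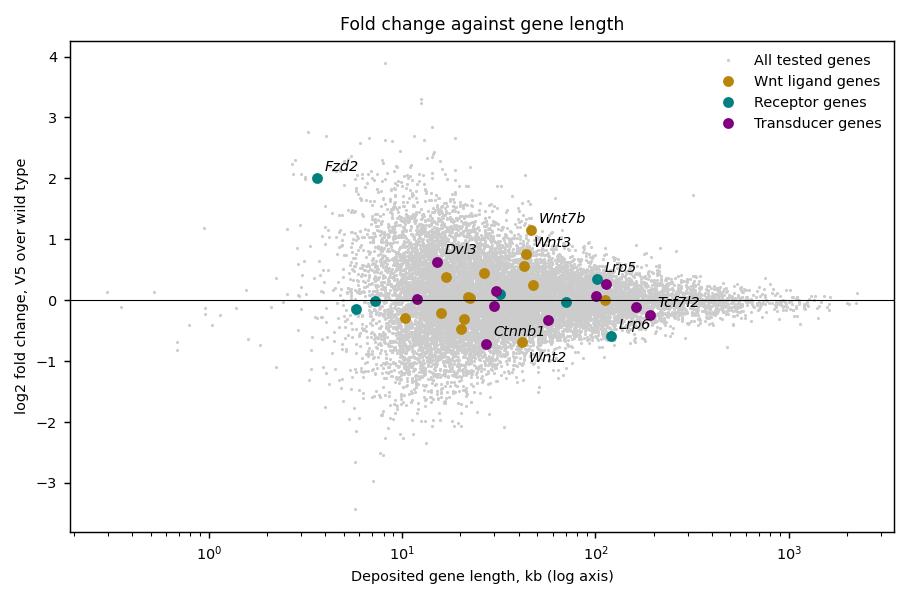
Log2 fold change of V5 over wild type (vertical axis) against deposited gene length in kb (log axis) for the tested genes with a positive length (grey) and the 31 tested Wnt genes (coloured by class). The values narrow with length, Fzd2 lies among the widely spread short genes, and Lrp6 and Tcf7l2 lie among the long ones.

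The rest of the pathway was described by a list of 61 genes grouped by textbook role, all of them in the table. With edgeR's quasi-likelihood test, 0 of its 47 tested genes passed over all genes, against 0% at large. An unadjusted p under 0.05 was found in 2, 1 in each direction. Over all tested genes the share was 4.12%, with 2.74% higher in V5 and 1.38% lower. DESeq2 and limma-voom called 0 of them. Their median log2 fold change was 0.03, against 0.02 over all tested genes. Of the 47 values 26 were above 0, where 52% of all tested genes were. Among secreted modulators the smallest p values were those of Frzb and Wif1, secreted proteins that bind Wnt ligands. Frzb had 11.2, 10.5 and 45.3 CPM in V5 (9, 12 and 149 reads), against 40.3, 48.2 and 51.1 CPM in wild type (52, 64 and 128 reads) and 39.0 CPM in the input (136 reads), and V5 replicate 3 overlapped the wild-type range. Its log2 fold change was -0.97 (SE 0.50), -2.04 without V5 replicate 3 and -0.63 without V5 replicate 2. Wif1 had 161, 83.4 and 87.3 CPM in V5 (130, 95 and 287 reads), against 79.9, 77.6 and 76.3 CPM in wild type (103, 103 and 191 reads) and 66.2 CPM in the input (231 reads). All V5 libraries were higher, 2 of them narrowly, and the log2 fold change of 0.54 (SE 0.30) was 0.11 without V5 replicate 1. Of the 47 tested genes of the list, 3 lay wholly above and 2 wholly below, against 4.83% and 5.27% of all tested genes.

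At the membrane, the genes with the smallest p were Znrf3, a ubiquitin ligase that removes Frizzled receptors, and Celsr3, a cadherin of planar cell polarity. Znrf3 (GeneID 407821, chromosome 11, 5276329 to 5444847) had 102, 165 and 169 CPM in V5 (82, 188 and 557 reads), against 206, 205 and 208 CPM in wild type (266, 272 and 521 reads) and 186 CPM in the input (650 reads). All V5 libraries were below both the wild-type libraries and the input, and the log2 fold change was -0.48 (SE 0.21; adjusted p = 0.980 by edgeR). Celsr3 had 17.4, 58.9 and 13.7 CPM in V5 (14, 67 and 45 reads), against 6.21, 12.8 and 13.2 CPM in wild type (8, 17 and 33 reads) and 19.2 CPM in the input (67 reads). All its V5 libraries were above the wild-type libraries, replicate 3 narrowly. Its log2 fold change of 1.47 (SE 0.65) was 0.54 without V5 replicate 2. Among intracellular genes, Gsk3b, a kinase that marks beta-catenin for destruction, had 118, 119 and 158 CPM in V5 (95, 136 and 519 reads), against 213, 144 and 192 CPM in wild type (275, 191 and 482 reads) and 117 CPM in the input (408 reads), a log2 fold change of -0.45 (SE 0.22). Nkd1, an inhibitor and target of the pathway, had 84.3, 90.5 and 67.9 CPM in V5 (68, 103 and 223 reads), against 68.3, 44.4 and 47.5 CPM in wild type (88, 59 and 119 reads) and 30.1 CPM in the input (105 reads), a log2 fold change of 0.63 (SE 0.32). In both of these genes the libraries of the genotypes overlapped.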

How the data were processed

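Per the file headers, the authors deposited 1 table of raw counts, listing for every Entrez gene its length and the reads of each library. Bcl2fastq, featureCounts, MACS and the build mm10 appear in the submitters' processing notes; versions, the aligner and duplicate handling were not given in the sources used here. Peak calls were not used here. Symbols and coordinates are from RefSeq GRCm38.p6, which matched 25275 identifiers; 23 of the 42 members overlap another RefSeq gene and may have lost reads there. The genotypes were compared in edgeR 4.0.16 under R 4.3.3 (genes kept by filterByExpr at 10 counts, scaling by TMM with factors of 0.923 to 1.04, robust glmQLFit, two-sided glmQLFTest, Benjamini-Hochberg adjustment over all tested genes, threshold 0.05); the biological coefficient of variation was 0.387, and the input did not enter the fit. The procedure was tested on simulated data. Standard errors are the fold change divided by the square root of its quasi-likelihood F. The CPM of single genes under the filter went into exact permutation tests, two-sided, and ratios over the input used a prior count of 0.5. Class sums have no test.

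The members and lists were chosen with earlier results of these data known. Within each class the text gives in full the 3 tested members with the smallest p, Wnt1, Wnt5a, Wnt9b, Lrp6, Ctnnb1, Axin2 and Lef1 throughout, the highest and lowest ratio under the filter, and 2 genes of each part of the second list; other genes with values in the text, the CG count of the windows, the length classes and the window of Fzd7 were chosen after their values were seen. Alternatives were DESeq2 1.42.0, limma-voom (limma 3.58.1), edgeR's likelihood ratio test, other scalings, no filter, a replicate block and leaving out each library.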

Additional observations from a re-analysis of the deposited data

How the results depend on the processing

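No Wnt gene and no gene of the second list was called under any alternative run. Over all genes the count of 0 became 1 with DESeq2, 1 with limma-voom, 9 without a filter on low counts and 0 to 2 when 1 library was left out, with 2 without V5 replicate 2 and 1 without V5 replicate 3; the cause was not tested. A replicate block, pairing libraries by their number, called 1 gene over all genes and 0 members, and gave Wnt9b a log2 fold change of -0.089. The deviations of equally numbered V5 and wild-type libraries correlated at 0.01, 0.01 and 0.06. The last was the highest of all pairs of a V5 and a wild-type library. With 3 libraries a group and counting error in each, values this small cannot tell whether equal numbers mark pairs. V5 replicate 1 correlated best with wild-type replicate 2, so not every library correlated best with its own number.

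Leaving out 1 library, the log2 fold change ran from -0.32 to 0.37 for Wnt9b, from -0.038 to 0.37 for Axin2 and from -0.16 to 0.43 for Lef1, so none of these has a settled direction; Axin2 was also -0.062 with limma-voom. Of the 19 tested genes that were recomputed under every alternative, the other 16 kept their sign, and the remaining tested members were not recomputed one by one. With limma-voom the log2 fold change was smaller by over 1.5 times for Wnt7b (0.68), Wnt3 (0.47), Wnt5a (-0.31), Lef1 (0.12), Celsr3 (0.84) and Wif1 (0.30). The median ratio over the input ran from -0.14 to 0.36 in V5 when 1 V5 library was left out, and from 0.02 to 0.08 in wild type when 1 wild-type library was left out; with a minimum of 140 counts it was 0.27 in V5 and 0.27 in wild type. The ratios of the class sums moved by less than the spread of the V5 libraries under all scalings. Depth limits the members of a few CPM: in the shallowest library, with 806648 counts, 3 counts correspond to 3.72 CPM.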
